A study of Nothobranchius furzeri with 18 samples.

Results

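The comparison covers tail fibroblasts of the African turquoise killifish (Nothobranchius furzeri) that are homozygous for a mutation in exon 1 of vgll3, set against wild-type (WT) fibroblasts. Members were chosen by the genotype given in the labels: 6 libraries carry the exon 1 genotype and 6 are WT, which is 12 of the 18 libraries of the series. The exon 1 libraries come from 3 cultures, numbered 3, 4 and 6, with libraries A and B of each. The WT libraries are F1 and F9, which have no letter, and A and B of F4 and of FM. Libraries A and B of a culture were summed and F1 and F9 were kept apart, which gives 3 exon 1 and 4 WT cultures, 7 of 10 in all. The other 3 cultures are homozygous for a mutation in exon 3 of the same gene. They serve here for the spread between cultures, for the test of the difference between the mutants and for levels beside those of WT. Names of libraries carry the tag KD where exon 1 is mutated, and the tag null marks those with the exon 3 mutation. No transgene, drug or other allele is named for any group. The labels give neither the sequence change in either exon nor the age or sex of the fish. Whether each culture stems from its own fish is not stated, so the spread behind each p-value may be partly technical. No sequence is shown, because the sequence tables and a genome of this species were not used here.

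Vgll3 is a vestigial-like cofactor without a DNA-binding domain of its own. It binds TEAD transcription factors, which also bind Yap and Taz, the coactivators held back by Hippo signalling, and TEAD targets include genes of the cytoskeleton, the matrix and growth control. In mammals Vgll3 is known from mesenchymal cells, where it takes part in the choice between fat, bone and cartilage fates and in fibroblast activation, and in Atlantic salmon variation at vgll3 is tied to the age at maturity.

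The exon 1 libraries held 15236208 to 23582245 counts each and the WT libraries 17915661 to 28146560 counts. Some libraries stood apart from their labelled partners. Among genes at 5 CPM (reads of a gene scaled to library size) or more, 18.6% were at least 2-fold apart between exon 1 libraries 3A and 3B, against 0.035% between 4A and 4B and 0.0884% between 6A and 6B. Library 3B was closest to library 6B (1.11% of genes 2-fold apart), and 3A was closest to an exon 3 mutant library (4.92%). In WT, 1.99% of genes were 2-fold apart between F4A and F4B and 3.57% between FMA and FMB, while F4B and FMA, which have different culture names, differed in 0.105%. Library F4A was closest to F1 (1.05%) and FMB to F9 (1.28%). The labelled partners of exon 1 culture 3 and of WT F4 and FM therefore differed more than the partners of the other cultures. F4B and FMA differed less than the partners of exon 3 culture 1 (0.123%). The summed F4 and FM may thus not be independent WT cultures, and the WT spread behind each p-value may be too small. How these libraries are related was not tested. They were summed as labelled, and single libraries are given below for some of the genes past the test, not for the others.

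The cells expressed most of the fibroblast markers in both genotypes. Of 12 fibroblast marker genes in the file, 11 reached 1 CPM in a culture, and col1a2, a chain of type I collagen, was at 1672 to 2939 CPM in the exon 1 mutant and 1534 to 1951 CPM in WT. The exception was vim, which did not exceed 0.603 CPM in the exon 1 mutant or 0.178 CPM in WT. The summed level of the 14 epithelial markers was 8709.9 to 9244 CPM in the exon 1 mutant and 6290.3 to 6939.9 CPM in WT. These ranges did not overlap. Nearly all of that sum was krt8 (LOC107391340), a keratin of simple epithelia, at 8968, 8919 and 8527 CPM in exon 1 cultures 3, 4 and 6 and 6615, 6098, 6747 and 6687 CPM in WT F1, F9, F4 and FM. It did not pass the test described below (log2 fold change 0.43 ± 0.20 SE, edgeR adjusted p = 0.607). Of 6 epithelial markers tested, none passed in edgeR and 0 in DESeq2, 2 were higher and 1 lower at an unadjusted p under 0.05, and the median log2 fold change was 0.31. The desmosome gene pkp1 was at 56.5 to 69.1 CPM against 26.9 to 55.2 CPM in WT, without overlap, and dsp, also of desmosomes, at 122 to 207 against 116 to 147 CPM, with overlap. The other 11 epithelial markers, epcam, cdh1 and tp63 among them, did not exceed 3.84 CPM in any of the 7 cultures. Summed markers of pigment cells were 22.7 to 27.2 CPM against 25 to 32.7 CPM in WT, and those of endothelium 15.8 to 31.7 against 19.9 to 29.8 CPM. Single pigment markers went opposite ways without overlap. In the exon 1 mutant dct was lower, at 2.65 to 5.15 against 5.37 to 13 CPM in WT. The gene ltk (LOC107392283) was higher, at 3.69 to 5.91 against 0.702 to 2.86 CPM. No pigment marker passed in edgeR. Markers of leukocytes, muscle, Schwann cells and neurons, and red blood cells summed to at most 6.99 CPM in any culture; for Schwann cells and neurons (2.17 to 4.02 against 1.5 to 2.15 CPM) and for red blood cells (1.34 to 1.71 against 0.392 to 1.24 CPM) the exon 1 range lay above that of WT. The part of these markers in the results below was not tested. In these bulk cultures, fewer cells of a type and less RNA per cell cannot be told apart.

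The level of vgll3, the targeted gene, was 266, 206 and 262 CPM in exon 1 cultures 3, 4 and 6 and 316, 262, 333 and 312 CPM in WT F1, F9, F4 and FM. The ranges met: exon 1 culture 3 lay above WT F9. The log2 fold change was -0.32 ± 0.14 (SE), with an unadjusted p of 0.0423 and an adjusted p of 0.565 in edgeR's quasi-likelihood test, and it did not pass. An exact two-sided permutation test of mean log2 CPM over the 7 cultures gave p = 0.114, where the smallest value that 3 against 4 cultures allow is 0.0571. In single libraries, 3B held 324 CPM and 3A held 221 CPM. In the exon 3 mutant, vgll3 was at 119, 103 and 99.9 CPM, lower than in every exon 1 and WT culture, and the difference between the mutants was 1.19 ± 0.15 on the log2 scale (SE, adjusted p = 0.0518), just outside the threshold of 0.05. A mutation within an exon need not change the number of transcripts. These levels alone therefore check neither the labelled genotype nor the tags KD and null. The other genes of the complex did not pass either. Log2 fold changes were -0.28 for tead1, -0.02 for tead1a (LOC107389211), -0.22 for tead3, 0.16 for tead3a (LOC107390951), -0.29 for vgll4, -0.19 for vgll4a (LOC107391090) and 0.06 for yap1, with adjusted p of 0.591 or more. Signs changed under an alternative for tead1a, tead3a, vgll4a and yap1.

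Across all genes, few changes passed. Of 16354 genes tested, 26 (0.159%) passed the test at an adjusted p under 0.05. Of these, 18 (0.11% of the genes tested) were higher in the exon 1 mutant and 8 (0.0489%) were lower. The balance of directions turned under other fits: 107 genes were higher and 160 lower in DESeq2, 13 and 22 with the exon 1 and WT cultures alone, 146 and 196 with single libraries, 16 and 17 with library B alone, 19 and 20 with library 3B alone for culture 3, and 10 and 12 without exon 3 culture 4. At an unadjusted p under 0.05, 682 genes (4.17%) were higher and 705 (4.31%) lower. The median log2 fold change over all genes was 0.02. The lowest exon 1 culture lay above the highest WT culture in 804 genes (4.92%), and the highest exon 1 culture below the lowest WT culture in 714 (4.37%). Among the 11625 genes at a mean of 5 CPM or more in a genotype, 82 were fitted at 2-fold higher or more and 117 at 2-fold lower or more, of which 55 and 54 had ranges of the cultures that did not overlap.

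**Figure D1:**
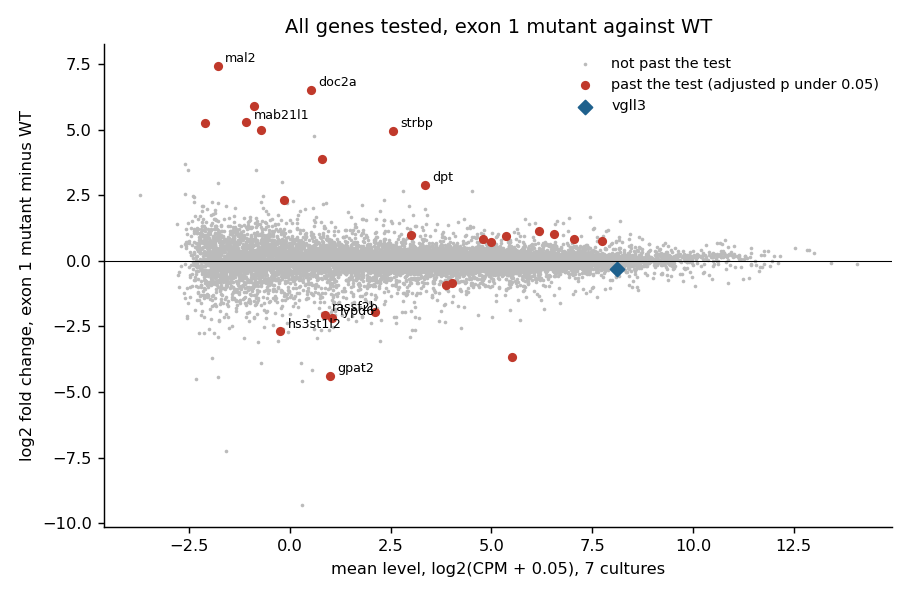
Log2 fold change of the exon 1 mutant minus WT (vertical axis) against the mean level over the 7 cultures as log2(CPM + 0.05) (horizontal axis), 1 point per gene tested. Red points are the 26 genes past the test, 18 above and 8 below 0, with names for annotated genes beyond 1.5 in size; the blue diamond is vgll3 at -0.32, inside the band of the other genes.

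The 26 genes were led by large changes of genes that were close to silent in 1 genotype. Of the 26, 12 had a mean under 5 CPM in both genotypes, 8 of them higher and 4 lower. The count depended on single cultures: it was 5 without exon 1 culture 3, 5 without culture 4, 9 without culture 6, 12 without WT F1, 10 without WT F4 and 9 without WT FM, and 16 and 56 without exon 3 cultures 1 and 3, which enter through the shared estimate of the spread. It was 3 with library A of each culture alone, 11 with culture 3 taken from library 3A alone, 14 with WT reduced to F1 and F9, and 6 and 12 under other pairings of the WT libraries. Both of these pairings sum F4B with FMA. DESeq2 called 267 genes, the 26 among them. Over 26 alternative fits, between 3 and 26 of the 26 genes were called again, and none of them changed sign. In 24 of the 26, the 6 exon 1 libraries also lay wholly above or below the 6 WT libraries. The exceptions were rassf2b and LOC107394236. These genes were called from the same libraries, so this adds no support, and the share over all genes is not given. The calls of 4 genes, strbp, dpt, LOC107395922 and LOC107372957, held in each of the 10 fits that left out a culture. In the main fit, 16 of the 26 genes also passed in the exon 3 mutant against WT, in the same direction. Both comparisons use the same 4 WT cultures and a shared estimate of the spread. The share of all genes past the test in the exon 3 mutant is not given here. The overlap therefore cannot be set against that share, and it was not tested.

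**Figure D2:**
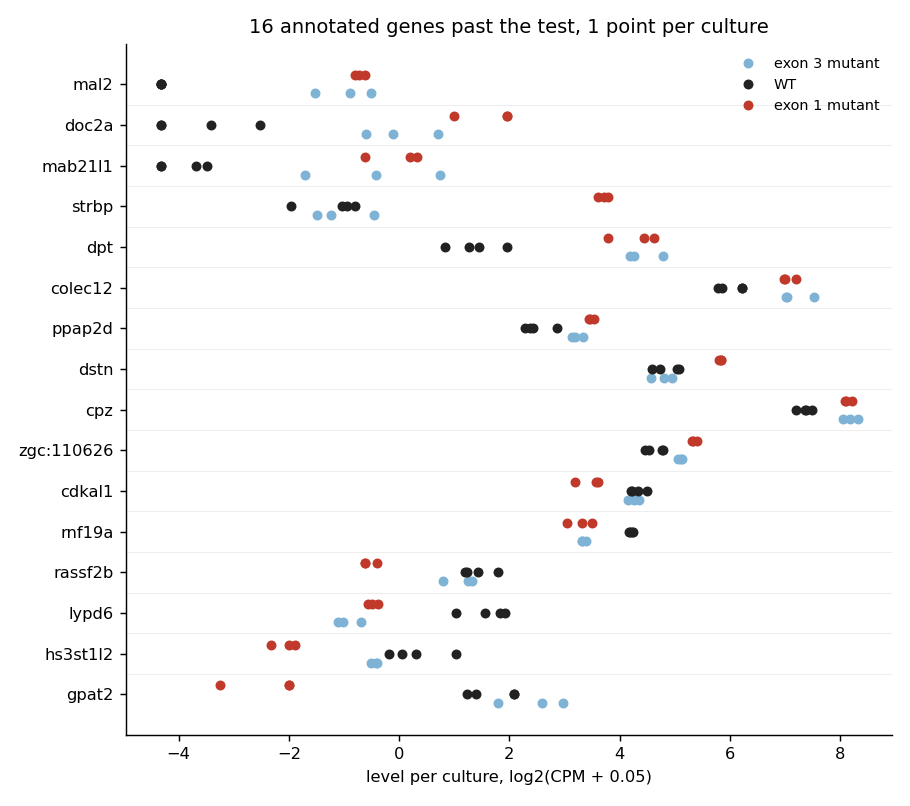
Level of 16 annotated genes past the test as log2(CPM + 0.05) (horizontal axis), 1 point per culture: exon 1 mutant in red (3), WT in black (4), exon 3 mutant in light blue (3). Red and black points do not overlap for any gene; light blue points lie beside the black ones for strbp, dstn and cdkal1 and beside the red ones for dpt, cpz, rnf19a and colec12.

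Of 21 germ cell and gonad genes tested, of 46 in the file, strbp rose and gpat2 fell, and both also differed between the mutants; the list's median log2 fold change was 0.06, beside 0.02 over all genes. The level of strbp, which encodes a spermatid RNA-binding protein needed for normal sperm in mice, was 12.2, 13.1 and 13.8 CPM in exon 1 cultures 3, 4 and 6 and 0.523, 0.207, 0.472 and 0.436 CPM in WT F1, F9, F4 and FM. All exon 1 cultures were far above all WT cultures, and in CPM neither genotype varied much within itself. It rose by 4.96 ± 0.31 (log2 fold change, SE, edgeR adjusted p = 1.97e-04), a 31.8-fold ratio of means, and was called in all 26 alternatives. In the exon 3 mutant strbp was at 0.306, 0.68 and 0.373 CPM, within or near the WT range. The mutants differed by 4.84 ± 0.35 (adjusted p = 6.62e-04). The gene gpat2 (LOC107394178), a mitochondrial glycerol-3-phosphate acyltransferase known from testis in mammals, was at 0.201, 0.2 and 0.055 CPM in the exon 1 cultures and 4.18, 4.17, 2.3 and 2.57 CPM in WT. It was lower in each exon 1 culture (log2 -4.38 ± 0.48 SE, adjusted p = 0.00917). The exon 3 mutant held 7.76, 3.42 and 6 CPM, and the log2 difference between the mutants was -5.18 ± 0.50 (adjusted p = 0.00647). These were the only 2 of the 16354 genes (0.0122%) past the test between the mutants. That count was 177 in DESeq2, 1 without exon 1 culture 3 or 4, 8 without culture 6 and 4 without exon 3 culture 3 or WT F9. The gpat2 call was lost without exon 1 culture 3 or 4 (adjusted p up to 0.0682).

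The WT libraries differed among themselves for gpat2. It was at 4.16, 4.18, 4.09 and 4.05 CPM in F1, F9, F4B and FMA but at 0.501 and 0.658 CPM in F4A and FMB, while the exon 1 libraries ran from 0 to 0.257 CPM. The summed WT cultures F4 and FM each join a high and a low library. When F4A was summed with FMB, F4B with FMA and F1 with F9, the call was lost. A gene 4 tested genes away on RefSeq chromosome 17 from gpat2, rassf2b (LOC107394183), showed the same pattern. It encodes a member of the Ras association domain family, whose mammalian relative binds the Hippo pathway's Mst kinases. Levels were 0.703, 0.601 and 0.605 CPM in the exon 1 cultures and 3.4, 2.64, 2.3 and 2.24 CPM in WT (log2 fold change -2.04 ± 0.26 SE, adjusted p = 0.019). Single library FMB was at 0.846 CPM, inside the exon 1 range that reached 1.13 CPM in 3A. Library F4A was just above that range at 1.17 CPM, and F1, F9, F4B and FMA were at 2.65 CPM or more. The call was lost when any exon 1 culture was left out (adjusted p up to 0.114) and under both other pairings of the WT libraries.

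Matrix, secreted and surface proteins were among the genes that rose. Dermatopontin (dpt), a small matrix protein that binds collagen and decorin, was at 21.8, 24.6 and 13.7 CPM in exon 1 cultures 3, 4 and 6 and 2.35, 1.73, 3.83 and 2.67 CPM in WT F1, F9, F4 and FM. The lowest exon 1 culture was above the highest WT culture by a wide margin. In CPM the exon 1 cultures differed among themselves more than the WT cultures did, but not relative to their mean. The level of dpt rose by 2.90 ± 0.28 (SE, adjusted p = 0.00337). Libraries 3A and 3B disagreed on its level, at 13.2 and 31.5 CPM, and both were above every WT library, the highest of which held 5.01 CPM. The call was lost with library A alone (adjusted p = 0.0505). The exon 3 mutant held 27.4, 18.1 and 19.2 CPM of dpt, also above WT.

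Carboxypeptidase Z (cpz, LOC107393301), a secreted enzyme that binds Wnt proteins, was at 276, 273 and 297 CPM in the exon 1 cultures and 167, 148, 179.8 and 164 CPM in WT. As summed, both groups were tight and lay apart, and cpz rose by 0.77 ± 0.12 (SE, adjusted p = 0.036). Single WT libraries ran from 145 CPM in FMB to 183 CPM in F4A. The cpz call was lost under both other pairings of the WT libraries. The scavenger receptor colec12, a membrane collectin, was at 127, 146 and 126 CPM against 55.1, 74.5, 58.1 and 74.1 CPM, without overlap. It rose by 1.02 ± 0.16 (adjusted p = 0.0477). The colec12 call held in only 6 of the 26 alternatives. It was lost under RLE and upper-quartile scaling, with library A or B alone, and under both other pairings of the WT libraries. Libraries 3A and 3B held 174 and 86.7 CPM of colec12, and the second was close to the highest WT library, FMB at 81.9 CPM. Both calls held in only 1 of the 10 fits that left out a culture, the one without exon 3 culture 3. The adjusted p reached 0.15 for cpz and 0.239 for colec12 in the other 9. The exon 3 mutant held 288, 319 and 267 CPM of cpz and 130, 184 and 131 CPM of colec12, also above WT.

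An actin regulator, a lipid phosphatase and zgc:110626 also rose. Destrin, the protein of dstn, severs and depolymerises actin filaments. The level was 55.9, 57.3 and 57.4 CPM in the exon 1 cultures and 23.9, 26.4, 32.7 and 33.9 CPM in WT, with all exon 1 cultures above all WT cultures. It rose by 0.96 ± 0.14 (SE, adjusted p = 0.0359). Exon 1 libraries 3A and 3B held 43.4 and 71.1 CPM of dstn, and the first was close to the highest WT library, FMB at 39 CPM. The dstn call was lost with culture 3 taken from library 3A alone. In the exon 3 mutant dstn was at 23.6, 30.7 and 28 CPM, within or near the WT range, but the difference between the mutants did not pass (1.05 ± 0.15, adjusted p = 0.106). A lipid phosphate phosphatase family gene, ppap2d (LOC107378305), was at 10.8, 11.5 and 10.9 CPM against 5.36, 7.19, 4.8 and 5.13 CPM in WT, clear of the WT range (log2 fold change 0.98 ± 0.15, adjusted p = 0.0403). The gene zgc:110626 (LOC107393889) was at 42.4, 40.5 and 39.96 CPM against 21.9, 23, 27.7 and 27.3 CPM, again without overlap (log2 fold change 0.71 ± 0.11, adjusted p = 0.036). These calls held in 2, 2 and 1 of the 10 fits that left out a culture, with adjusted p of up to 0.148, 0.189 and 0.148. The zgc:110626 call was lost under both other pairings of the WT libraries. The dstn and ppap2d calls were lost when F4A was summed with FMB, F4B with FMA and F1 with F9.

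A further group was nearly absent from WT. The calcium sensor of vesicle release doc2a (LOC107395030), known from neurons, was at 3.82, 3.85 and 1.95 CPM in exon 1 cultures 3, 4 and 6, from 396 reads in 6 libraries, against 4 reads in the 6 WT libraries. It rose by 6.52 ± 0.78 (log2, SE, adjusted p = 0.0131). In the exon 3 mutant it was at 1.57, 0.609 and 0.871 CPM, lower than in the exon 1 mutant, by an amount that did not pass (adjusted p = 0.498). The transmembrane protein gene mal2, which takes part in transport across polarised epithelial cells, was at 0.528, 0.556 and 0.605 CPM in the exon 1 cultures and had no read in WT. It was at least 25-fold higher than in WT, with WT set at a floor of 3 counts over the group (adjusted p = 0.0263). The developmental gene mab21l1, needed for eye formation in mice, had 117 reads in the exon 1 mutant and 3 in WT, a ratio of 43.1 (95% counting interval 14.4 to 212, adjusted p = 0.0448). The exon 3 mutant held 0.656, 0.492 and 0.299 CPM of mal2 and 0.7, 0.258 and 1.62 CPM of mab21l1, so both mutants had more than WT. No library in WT had more than 3 reads of any of the 3 genes. The calls held in 8, 3 and 2 of the 10 fits that left out a culture (adjusted p up to 0.078 for doc2a and 0.205 for mab21l1).

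The genes that fell included an E3 ubiquitin ligase, a Wnt modulator, a heparan sulfate enzyme and a tRNA-modifying enzyme. The ligase rnf19a was at 9.97, 8.23 and 11.2 CPM in the exon 1 cultures and 18.3, 18.8, 18.8 and 17.9 CPM in WT. As summed, the WT cultures were nearly equal and all above the exon 1 cultures, and rnf19a fell (log2 -0.91 ± 0.12, adjusted p = 0.0195). Single WT libraries ran from 16.6 CPM in FMB to 20.1 CPM in F4B. The rnf19a call was lost under both other pairings of the WT libraries, as were those of cdkal1, lypd6 and hs3st1l2, described next. The exon 3 mutant held 9.9, 10.4 and 9.96 CPM of rnf19a, also below WT. The methylthiotransferase gene cdkal1, whose enzyme modifies a lysine tRNA, was at 9.12, 12.2 and 11.9 CPM against 20.2, 22.6, 18.4 and 18.7 CPM, again apart (log2 fold change -0.85 ± 0.13, adjusted p = 0.0448). The exon 3 mutant held 19.1, 20.4 and 17.8 CPM of cdkal1, within or near the WT range, and the difference between the mutants did not pass (adjusted p = 0.164). The gene lypd6, a membrane-anchored protein that promotes Wnt signalling in zebrafish, was at 0.628, 0.712 and 0.66 CPM against 2, 3.51, 2.89 and 3.72 CPM (log2 fold change -2.18 ± 0.29, adjusted p = 0.0195). Its WT libraries ran from 1.33 CPM in F4B to 6.82 CPM in FMB, all above the exon 1 libraries. In the exon 3 mutant lypd6 was at 0.415, 0.445 and 0.573 CPM, also below WT (log2 fold change -2.66, edgeR adjusted p = 0.00978). The heparan sulfate sulfotransferase gene hs3st1l2 (LOC107386218) was at 0.151, 0.2 and 0.22 CPM against 2, 0.991, 1.19 and 0.832 CPM, with WT libraries from 0.558 CPM in FMA to 1.99 CPM in F1 (log2 fold change -2.69 ± 0.40, adjusted p = 0.036). In the order rnf19a, cdkal1, lypd6 and hs3st1l2, the calls held in 5, 1, 5 and 2 of the 10 fits that left out a culture, with adjusted p of up to 0.0855, 0.15, 0.114 and 0.189.

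RefSeq gives no name to 9 of the 26 genes, 7 higher and 2 lower. The larger of the 2 falls was that of LOC107383917, at 7.33, 4.01 and 6.27 CPM in the exon 1 cultures and 90.3, 57.6, 78.6 and 74 CPM in WT. There was a wide gap between the groups, and it fell (log2 -3.68 ± 0.42 SE, adjusted p = 0.0103). The call was lost when any exon 1 culture was left out (adjusted p up to 0.078). In the exon 3 mutant it was at 8.75, 5.18 and 18.1 CPM, also below WT (log2 fold change -2.81, edgeR adjusted p = 0.0257). The second, LOC107394236, was at 1.28, 1.94 and 1.62 CPM against 6.53, 8.76, 5.27 and 4.67 CPM (log2 fold change -1.96 ± 0.26, adjusted p = 0.0195), and its libraries F4A and FMB were again low in WT, at 3.12 and 2.12 CPM. Among the genes that rose, LOC107395922 was at 3.89, 4.47 and 2.5 CPM against 0.218, 0.207, 0.305 and 0.218 CPM, and at 2.65, 3.94 and 3.73 CPM in the exon 3 mutant. It rose by 3.91 ± 0.30 (adjusted p = 6.35e-04) and was called in all 26 alternatives. LOC107372957 had 136 reads in the exon 1 mutant and 2 in WT, a ratio of 75.1 (95% counting interval 20.4 to 626, adjusted p = 0.00337). Its libraries 3A and 3B held 0.616 and 2.01 CPM.

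**Figure D3:**
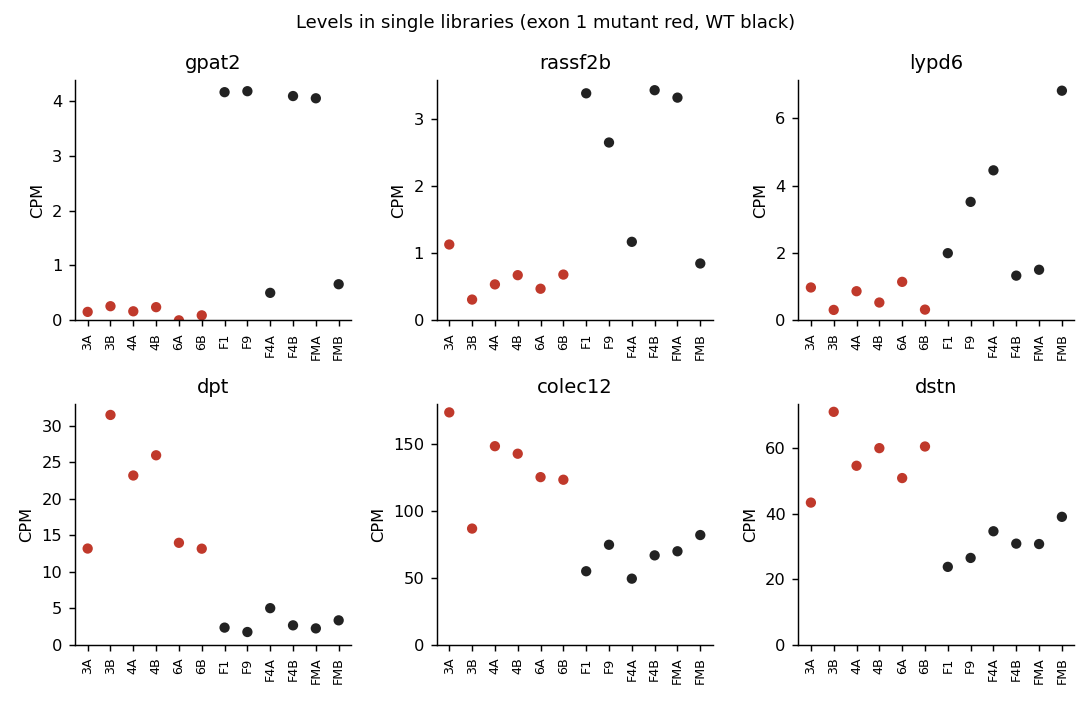
Level in CPM (vertical axes, from 0) of 6 genes past the test in each of the 6 exon 1 (red) and 6 WT (black) libraries. WT libraries F4A and FMB lie below F1, F9, F4B and FMA for gpat2 and rassf2b and above them for dpt, lypd6 and dstn. Exon 1 libraries 3A and 3B differ for dpt, colec12, dstn, rassf2b and lypd6.

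Chromosome 5 held a larger share of genes past the test than the other chromosomes together; this is a description with no test. RefSeq places 21 of the 26 on a chromosome, with 12472 of the genes tested. Chromosome 5 held 8 of the 21, which is 0.896% of its 893 tested genes, against 13 of 11579 (0.112%) on the rest of the placed genes. The 8 are doc2a, mal2, ppap2d, cdkal1, rnf19a, LOC107395922, LOC107372957 and 1 more unnamed gene. Over the 26 alternatives, 1 to 31 called genes lay there, the lowest with library A alone and the highest with DESeq2. These were 1 of 3 called genes with library A alone and 31 of 267 with DESeq2. With 18 single libraries it was 30 of 342, so the share on chromosome 5 was smaller in the 2 fits that called most genes. At an unadjusted p under 0.005, 3.02% of genes on chromosome 5 and 1.55% of the others were found. As background, chromosome 5 carries the sex-determining region of this species; the labels give no sex for these cultures. The genes mal2 and cdkal1 lie 2 tested genes apart on it, with changes of opposite sign. The gene vgll3 itself is on chromosome 14. Of its 20 nearest tested neighbours, 10 on each side, none passed in edgeR and 3 were among the 267 genes that DESeq2 called. An unadjusted p under 0.05 was found for 4 of the 20, beside 1387 of the 16354 genes tested. Log2 fold changes of the 20 ran from -1.84, that of igfbp5b (LOC107395865), to 0.72. Whether their place near vgll3 plays a part was not tested. The sole gene past the test on chromosome 14, lypd6, lay 508 tested genes away.

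**Figure D4:**
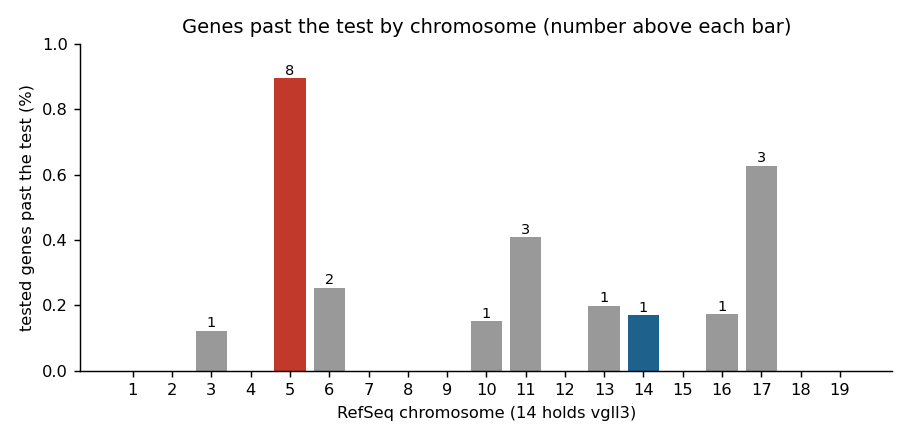
Share of tested genes past the test on each RefSeq chromosome in percent (vertical axis), with the number of genes past the test above each bar; chromosome 5 in red, chromosome 14, which holds vgll3, in blue. Chromosome 5 has 8 genes past the test and chromosomes 11 and 17 have 3 each; 10 of the 19 chromosomes have none.

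Below the threshold lay genes of the matrix, adhesion and Notch signalling whose cultures did not overlap. They are given as values, since none passed. The lack of overlap was a rule of choice for these 12 genes and adds no support. Over all genes it was seen for 4.92% in the higher and 4.37% in the lower direction. The secreted lectin clec11a, which promotes bone formation in mice, was at 5.48, 3.83 and 6.3 CPM in exon 1 cultures 3, 4 and 6 and 13.7, 17.6, 22 and 25.1 CPM in WT F1, F9, F4 and FM (log2 fold change -1.92 ± 0.32 SE, edgeR adjusted p = 0.0611). The Notch target heyl (LOC107383332), a transcriptional repressor, was at 336, 292 and 417 CPM against 111, 141, 189.7 and 176 CPM (1.17 ± 0.20, adjusted p = 0.0644). The LIM protein gene fhl3, known from muscle and the actin cytoskeleton, was at 10.2, 10.8 and 13.5 CPM against 33.1, 16.6, 32.7 and 27.9 CPM (-1.26 ± 0.22, adjusted p = 0.0881). All exon 1 cultures were above WT for heyl and below it for clec11a and fhl3. Integrin alpha 9 (itga9), a receptor for tenascin and other matrix ligands, was at 102, 104 and 71.6 CPM against 194, 191, 223 and 253 CPM (-1.22 ± 0.23, adjusted p = 0.11). The collagen prolyl 3-hydroxylase gene p3h2 was at 31.7, 36.6 and 29.1 CPM against 66.1, 47.5, 69.3 and 69.6 CPM (-0.96 ± 0.18, adjusted p = 0.11). The hyaluronidase family gene hyal4 (LOC107389501) was at 83.5, 95.4 and 103 CPM against 18.4, 39.9, 37.3 and 47.3 CPM (1.39 ± 0.26, adjusted p = 0.107). The exon 1 cultures were below WT for itga9 and p3h2 and above it for hyal4. For the other 6 of the 12, log2 fold changes were -0.79 for the kinase pim3, -0.79 for the dystroglycan glycosyltransferase large2 (LOC107381561), -1.30 for si:ch211-136a13.1 (LOC107380420), -0.78 for the growth arrest gene gadd45g, 0.90 for renbp and 0.61 for the kinase prkd2, with adjusted p from 0.0651 to 0.12.

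Genes that TEAD factors and Yap regulate lay mostly below WT, and none of them passed in edgeR, while DESeq2 called 0 higher and 2 lower. Of 29 YAP-TEAD target genes tested, 6 were above and 23 below 0, with a median log2 fold change of -0.37 beside 0.02 over all genes. At an unadjusted p under 0.05, 6 (20.7%) were lower, against 4.31% of all genes, and 2 (6.9%) higher, against 4.17%. The gene lists were chosen with earlier results of these data known. These shares, and those of the other lists, are therefore descriptions with no test. The median kept its sign in all 26 alternatives (-0.49 to -0.19). Set against the mean of WT, the median of these targets was -0.33, -0.32 and -0.20 in exon 1 cultures 3, 4 and 6 and -0.11, -0.17, 0.18 and 0.06 in WT F1, F9, F4 and FM, without overlap. The secreted thrombospondin thbs1b (LOC107377820) was at 39.4, 38.2 and 33.9 CPM against 88.8, 87.4, 103 and 138 CPM in WT (-1.49 ± 0.36 log2, adjusted p = 0.21). The matricellular gene cyr61 was at 543, 409 and 686 CPM against 908, 908, 727 and 702 CPM (-0.57 ± 0.19, adjusted p = 0.417). Both were below WT in every culture, by amounts that did not pass. The angiomotin family gene amotl2b (LOC107383982) had a log2 fold change of -0.48 and the matrix gene ccdc80 (LOC107389522) of 0.71. Of 36 genes of the Hippo pathway and its cofactors, none passed in edgeR and 1 in DESeq2, and the median was -0.11. An unadjusted p under 0.05 was found for 4 (11.1%), all lower, against 4.31% of all genes. These 4 were vgll3, the mutated gene itself, amotl2b, which is also one of the targets above, amotl2 and limd1a (LOC107396290).

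Immediate-early genes, which growth factors and stress switch on within minutes, and inflammatory genes lay lower as well, again with no gene past the test in edgeR and 2 and 3 in DESeq2. Of 42 immediate-early genes, 34 were below 0, with a median log2 fold change of -0.52. At an unadjusted p under 0.05, 8 (19%) were lower and 0 higher, against 4.31% and 4.17% of all genes. The list's median was -0.33, -0.69 and -0.19 in the exon 1 cultures and 0.26, -0.11, -0.14 and -0.09 in WT, so the groups lay apart, and WT F1 stood above the other WT cultures. The AP-1 gene fosl2 was at 190.0, 146 and 209 CPM against 356, 251, 313 and 272 CPM (-0.71 ± 0.22 log2, adjusted p = 0.362). The phosphatase dusp1, which switches off MAP kinases, was at 2.91, 2.58 and 3.96 CPM against 9.32, 8.01, 5.83 and 5.13 CPM (-1.16 ± 0.33, adjusted p = 0.303). The stress factor atf3 was at 2.16, 2.27 and 4.18 CPM against 8.58, 5.91, 4.33 and 4.5 CPM (-1.02 ± 0.31, adjusted p = 0.356), and all 3 were below the WT range. Among 30 inflammatory genes, 23 were below 0 (median -0.19), and ptgs2, the inducible prostaglandin synthase, was at 39.3, 32.6 and 38.1 CPM against 73.8, 41.7, 88.6 and 87 CPM (-0.99 ± 0.24, adjusted p = 0.21). WT F9 was close to the exon 1 cultures for ptgs2 and the other WT cultures were well above. Both medians kept their sign in all 26 alternatives (-0.65 to -0.37 and -0.32 to -0.16).

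Matrix genes did not move as a body. Of 67 structural matrix genes, 1 passed, dpt, which is described above. At an unadjusted p under 0.05, 8 (11.9%) were higher and 0 lower, against 4.17% and 4.31% of all genes. The list's median was 0.16, with 0.47, 0.16 and -0.35 in exon 1 cultures 3, 4 and 6 and -0.20, 0.02, 0.10 and 0.15 in WT, so culture 6 lay below all WT cultures and culture 3 above them. The sign of the median changed in 3 of the 26 alternatives. The microfibril gene mfap2 was at 440.4, 623 and 631 CPM against 202, 409, 293 and 374 CPM (0.82 ± 0.30 log2, adjusted p = 0.471), and the leucine-rich proteoglycan gene prelp at 295, 415 and 189 CPM against 119.6, 228, 116 and 154 CPM (0.96 ± 0.29, adjusted p = 0.372). The first was clear of the WT range and the second was not. Of 52 genes of matrix crosslinking and proteolysis, cpz passed, and the median was -0.10. At an unadjusted p under 0.05, 6 (11.5%) were lower, against 4.31% of all genes. These 6 include the procollagen proteinase tll1 (LOC107388347), at 101, 54 and 83.1 CPM against 231, 127, 216 and 138 CPM (-1.16 ± 0.26, adjusted p = 0.169), and the stromal protease mmp11, at 22, 19.5 and 17 CPM against 42.5, 39.8, 37.4 and 33.4 CPM (-0.97 ± 0.31, adjusted p = 0.38). Of 54 genes of the actin cytoskeleton, dstn passed, 37 were below 0 and the median was -0.13.

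Genes of the mesenchymal fates that Vgll3 is known for split between higher and lower. None passed in edgeR, and DESeq2 called 1 cartilage, 1 bone and 1 adipocyte genes. Among 18 cartilage genes the median was -0.48. By culture it was -0.09, -0.11 and -0.79 in exon 1 cultures 3, 4 and 6 and -0.31, 0.10, -0.06 and 0.38 in WT. Exon 1 cultures 3 and 4 thus lay within the WT range, and culture 6 lay below it. At an unadjusted p under 0.05, 5 (27.8%) were lower and none higher, against 4.31% and 4.17% of all genes. The cartilage leucine-rich protein gene chad was at 1.08, 0.134 and 1.54 CPM against 4.27, 2.56, 11.6 and 11.5 CPM (-3.05 ± 0.73 log2, adjusted p = 0.21), below WT in every culture. The cartilage genes comp and ucma did not exceed 1.12 and 1.07 CPM in any of the 7 cultures, with log2 fold changes of -1.68 and -2.28. A further cartilage gene, cilp2, was at 2.31, 0.734 and 0.385 CPM against 1.87, 10.4, 2.53 and 5.58 CPM, with overlap (-2.15 ± 0.70, adjusted p = 0.413). Of 20 genes of bone-forming cells, 3 (15%) were higher and 1 (5%) lower at that level (median 0.07). The mineralisation inhibitor mgp was at 189.7, 157 and 125 CPM against 65.3, 43.5, 59.7 and 51.6 CPM (1.51 ± 0.30, adjusted p = 0.127). The phosphatase alpl, which feeds mineralisation, was at 215, 653 and 544 CPM against 113, 144, 182 and 208 CPM (1.54 ± 0.53, adjusted p = 0.435). In both genes every exon 1 culture was above every WT culture, with alpl in culture 3 just above WT FM. Of 21 genes of adipocyte differentiation, 1 (4.76%) was higher and 1 (4.76%) lower at an unadjusted p under 0.05. The lower gene was cebpb (LOC107391299), at 6.25, 6.28 and 8.53 CPM against 26.2, 11.3, 15.1 and 11.6 CPM (-1.19 ± 0.32, adjusted p = 0.277).

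Genes of TGF-beta and BMP signalling lay on both sides of WT. The BMP antagonist grem1b (LOC107392453) was at 46.9, 59.8 and 37.7 CPM in the exon 1 cultures and 213, 125, 138 and 114 CPM in WT (-1.61 ± 0.38 log2, adjusted p = 0.192). The ligand tgfb1a (LOC107379821) was at 30.8, 27.1 and 23.4 CPM against 42.8, 45.3, 40.2 and 43.1 CPM (-0.66 ± 0.16, adjusted p = 0.206). Both lay below WT in all cultures. Over the 58 genes tested the median was -0.06. At an unadjusted p under 0.05, 3 (5.17%) were higher and 7 (12.1%) lower, against 4.17% and 4.31% of all genes. In the growth hormone and IGF axis (28 genes, median 0.03), none passed the test in edgeR and 1 in DESeq2. At an unadjusted p under 0.05, 1 (3.57%) was higher and 4 (14.3%) lower. The IGF-binding protein gene igfbp5b (LOC107395865), which lies near vgll3 on chromosome 14, was at 47.9, 19.1 and 28.7 CPM against 133, 50.1, 157 and 115 CPM (-1.84 ± 0.39, adjusted p = 0.151). Its exon 1 culture 3 nearly reached WT F9. Of 27 p53 targets and senescence genes, none passed in edgeR and 2 in DESeq2. The cell cycle inhibitor cdkn1b was at 7.74, 7.32 and 7.26 CPM against 11.8, 10.04, 13.2 and 10.5 CPM (-0.61 ± 0.13, adjusted p = 0.146), and 1 gene (3.7%) was higher and 2 (7.41%) lower at an unadjusted p under 0.05.

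Genes of mitosis, DNA replication, lysosomes, ribosomes and oxidative phosphorylation did not pass in edgeR, and DESeq2 called 0 of them. All 68 mitosis genes tested were above 0, with a median of 0.33, and 2 (2.94%) reached an unadjusted p under 0.05. The list's median was 0.15, -0.11 and 0.79 in exon 1 cultures 3, 4 and 6 and -0.14, -0.08, 0.20 and 0.04 in WT, so culture 6 was high and culture 4 lay within the WT range. Of 79 lysosome and autophagy genes, 13 (16.5%) were higher at an unadjusted p under 0.05, against 4.17% of all genes, and 1 lower. Their median was small, 0.09, and was 0.17, 0.04 and 0.07 in the exon 1 cultures and 0.02, 0.04, -0.03 and -0.05 in WT, with culture 4 close to the highest WT culture. The glucocerebrosidase gene gba was at 22.7, 23.9 and 21.8 CPM against 18.3, 16.1, 14.9 and 14.9 CPM (0.51 ± 0.14 log2, adjusted p = 0.283). The glycosaminoglycan sulfatase gene gnsb (LOC107395870) was at 63, 53.9 and 58.9 CPM against 43.2, 44.3, 47.9 and 44.8 CPM (0.38 ± 0.11, adjusted p = 0.303). Both were above WT in every exon 1 culture. The median of 79 cytosolic ribosomal protein genes was 0.18, and by culture 0.04, 0.04 and 0.48 in exon 1 cultures 3, 4 and 6 and 0.29, -0.08, 0.06 and -0.27 in WT, so culture 6 alone lay above the WT range; the fitted median ran from -0.25 to 0.56 over the alternatives and changed sign in 2. Medians were 0.09 for 56 DNA replication genes and -0.02 for 73 genes of oxidative phosphorylation, which changed sign in 1 and 8 alternatives, with 0 DNA replication, 0 ribosomal and 1 oxidative phosphorylation gene at an unadjusted p under 0.05.

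**Figure D5:**
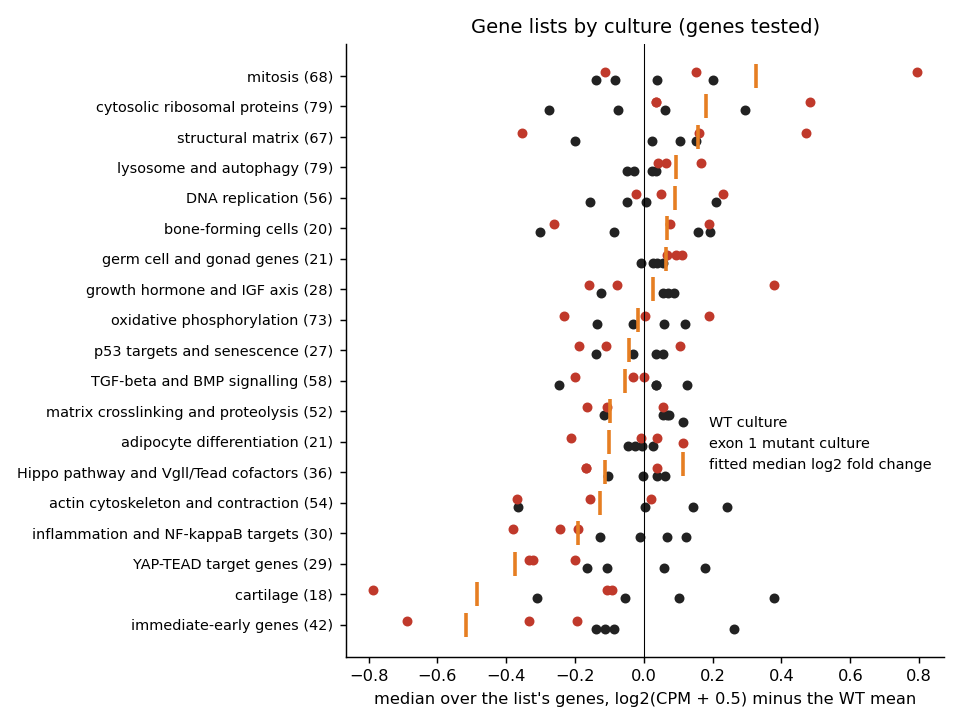
Median over the genes of each list of log2(CPM + 0.5) minus the WT mean (horizontal axis), 1 red point per exon 1 culture and 1 black point per WT culture, with the fitted median log2 fold change as an orange bar and the number of genes tested in brackets. Red points lie wholly below the black ones for YAP-TEAD targets, immediate-early genes and inflammatory genes, and wholly above them for lysosome and autophagy and for germ cell and gonad genes, by a small margin; for structural matrix they lie on both sides of the black ones.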

How the data were processed

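RNA-seq of killifish tail fibroblasts was deposited by the authors as 1 table of raw counts per gene for 18 libraries, with no normalization. Per the submitters' processing notes, the named tools include edgeR 3.32.1 and STAR 2.7.6a, besides cutadapt 3.4, FastQC 0.11.8 and Trim Galore 0.6.4. Not given in the sources used here were the genome build, the use of strand and the treatment of multimapping reads, so counts of near-identical or overlapping genes are uncertain. Of 25099 genes in the table, 17480 matched a RefSeq gene by symbol or identifier; RefSeq assembly NfurGRZ-RIMD1 served for names, chromosomes and gene order alone.

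From the deposited counts, libraries A and B of a culture were summed, as the labels call them technical replicates, and WT F1 and F9 were kept apart. The 10 cultures of 3 genotypes were fitted together in edgeR 4.0.16 (R 4.3.3) with TMM scaling, filterByExpr by genotype, a robust quasi-likelihood F test and Benjamini-Hochberg adjustment over the 16354 genes kept; the threshold was an adjusted p of 0.05. CPM values are scaled to the TMM library size. Fitted log2 fold changes use a prior count of 0.125 and list medians by culture log2(CPM + 0.5). The fit was tested on simulated data. Counting intervals and the floor of 3 counts are at 95% and cover counting error only.

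Genes past the test were named, with at most 2 unnamed identifiers per direction and 1 gene that is counted but not reported here; next the 12 annotated genes of smallest p at 5 CPM or more whose cultures did not overlap; and members of smallest p in each gene list. The comparison, the gene lists and these rules were chosen with earlier results of these data known. Alternatives were RLE and upper-quartile scaling, no filter and a stricter filter, DESeq2 1.42.0, non-robust dispersions, the exon 1 and WT cultures alone, 18 single libraries, 1 library per culture, other groupings of the WT libraries, and leaving out each culture.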

Additional observations from a re-analysis of the deposited data

Results flagged for a closer look

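Among 38 groups of 4 WT cultures examined, 1 for each of the 26 genes past the test and the 12 next to it, 3 had a culture far from the other 3 in CPM; chance flags about 1 in 20 groups. LOC107395922 was at 0.305 CPM in WT F4 and at 0.207 to 0.218 CPM in the other WT cultures. An unnamed gene was at 0.0413 CPM in WT F9, from 1 read, and had no read in the other WT cultures. With no read in the others, any read in 1 culture is flagged. The level of p3h2 was 47.5 CPM in WT F9, below the other WT cultures and above the exon 1 cultures. The 2 mutants differed in 2 genes by the edgeR test of the difference itself: strbp by a log2 fold change of 4.84 and gpat2 by -5.18, exon 1 minus exon 3 mutant.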

How the results depend on the processing

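None of the 26 genes past the test or of the 12 next to it changed sign in the 26 alternatives, and vgll3 did not pass in any of them; signs of tead1a, tead3a, vgll4a and yap1 did change, and other list members were not followed one by one. The number of genes past the test, 26 as reported, was 267 with DESeq2, 342 with 18 libraries as separate samples, 3 with library A alone, 11 with exon 1 culture 3 from library 3A alone, 14 with WT reduced to F1 and F9, and 6 and 12 with the WT libraries summed in 2 other ways. Leaving out 1 culture gave 5 to 56. Between the mutants, 2 genes passed as reported, 177 with DESeq2, 278 with 18 libraries, 6 with library 3B alone for exon 1 culture 3, 1 with F1 and F9, F4A and FMB, and F4B and FMA summed, and 1 to 8 when 1 culture was left out. Treating A and B as separate samples counts technical replicates as cultures; the cause of the other shifts was not tested. Of 19 list medians, 9 kept their sign in all 26 alternatives and 10 did not. No paired analysis was possible because exon 1 and WT cultures share no replicate number; numbers 3 and 4 recur only in the 2 mutants, and nothing in the labels ties them. Genes at a few reads per library, such as mal2 and mab21l1, are limited by depth.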
